A study of Mus musculus with 16 samples.

Results

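Thrombomodulin (Thbd), the endothelial protein C receptor (Procr), tissue factor pathway inhibitor (Tfpi), tissue factor (F3), factor VIII (F8), von Willebrand factor (Vwf), the ecto-nucleotidase CD39 (Entpd1) and the thrombin receptor PAR1 (F2r) were followed as 8 genes that set clotting at the endothelial surface. They were chosen by symbol from the 43629 genes of the expression table, and all 8 were among the 23816 genes with enough signal to be tested. Thbd, Procr, Tfpi and Entpd1 encode proteins that restrain clotting or platelets, whereas F3, F8 and Vwf encode proteins that promote them, so the set holds both sides of the balance. RNA came from primary cardiac microvascular endothelial cells of C57BL/6J mice aged 8 to 10 weeks, captured with magnetic beads against CD31, a surface protein of endothelium. There were 4 samples per genotype, each a pool of 2 mice. In the group labelled DKO, Klf2 and Klf4 were both to be deleted in endothelium, in K2KO Klf2 alone, and in K4KO Klf4 alone, and the reference mice are labelled Cre control. Mice had been injected with tamoxifen to trigger the deletion, and cells were taken on day 6. The sources used here do not name the promoter that drives the recombinase.

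Healthy endothelium keeps blood fluid by presenting inhibitors on its surface. Thrombomodulin captures thrombin and turns it from a clotting enzyme into an activator of protein C, which the endothelial protein C receptor presents to it, and activated protein C then inactivates clotting cofactors. KLF2 and KLF4 are zinc-finger transcription factors that laminar blood flow induces in endothelial cells, they bind CACCC elements in DNA, and Thbd is a classical gene activated by both.

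The promoters of Procr and Entpd1 are shown because these genes changed strongly in opposite directions, and because the short element that KLF2 and KLF4 bind can be read in them. Each is the 250 bases before a start site on the plus strand of GRCm38.p6, from RefSeq, written 5′ to 3′ with every CACCC or its complement GGGTG in capitals. Entpd1 has 2 annotated start sites, and both are given.

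Procr, chr2:155750967-155751216: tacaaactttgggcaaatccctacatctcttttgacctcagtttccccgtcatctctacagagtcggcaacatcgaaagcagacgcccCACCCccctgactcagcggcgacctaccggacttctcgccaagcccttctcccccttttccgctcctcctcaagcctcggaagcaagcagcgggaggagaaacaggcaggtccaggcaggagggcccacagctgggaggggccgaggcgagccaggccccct
Entpd1 first start, chr19:40612116-40612365: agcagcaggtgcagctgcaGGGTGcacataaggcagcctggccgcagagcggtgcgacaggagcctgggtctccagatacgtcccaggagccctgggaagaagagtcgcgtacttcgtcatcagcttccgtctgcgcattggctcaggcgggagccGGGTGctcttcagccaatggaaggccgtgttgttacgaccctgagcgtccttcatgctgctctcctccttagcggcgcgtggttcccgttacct
Entpd1 second start, chr19:40659520-40659769: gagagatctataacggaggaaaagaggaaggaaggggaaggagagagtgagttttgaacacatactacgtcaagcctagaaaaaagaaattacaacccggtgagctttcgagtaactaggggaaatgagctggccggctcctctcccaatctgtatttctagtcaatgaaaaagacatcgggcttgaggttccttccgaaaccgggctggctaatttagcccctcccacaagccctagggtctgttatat

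The Procr window held 1 match, 162 bases before the RefSeq start, which lies inside the gene bounds given below. The first Entpd1 window held 2, which lay 231 and 94 bases before the start, and the second held none. Of the 8 genes, 6 had a promoter in the RefSeq table, with 8 windows in all, and Thbd and Vwf did not. F3 had 3 matches, F2r had 2, each of the Tfpi windows had 1 and F8 had none. Of all 32851 promoters in the table, 52.0% held at least 1 match, 21.1% at least 2 and 6.92% at least 3, so the matches only describe these windows.

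Klf2 and Klf4 were read first as a check of the labels. The values are scaled counts, that is, read counts divided by 1 depth factor per library. Klf2 averaged 3354 ± 203 in K2KO libraries and 7227 ± 2359 in Cre controls (SD, n = 4 each), a log2 difference of -1.06 ± 0.16 (SE, limma adjusted p = 0.00682). A two-sided exact permutation test gave p = 0.0286, the lowest p that groups of 4 can reach. Robust limma without a trend gave an adjusted p of 0.0879 for it, the highest over the alternatives tried. Klf4 averaged 5819 ± 705 in K4KO libraries and 9691 ± 2466 in Cre controls. All 4 K4KO libraries lay below every control (exact permutation p = 0.0286), but the log2 difference of -0.71 ± 0.15 did not pass the limma test across all genes (adjusted p = 0.118). DESeq2 called it (-0.74, adjusted p = 0.00377), as did limma with the replicate number as a block (adjusted p = 0.0284). The other 24 of the 26 alternatives tried did not call it, with adjusted p up to 0.396. In the authors' deposited table its adjusted p was 0.0934. In the libraries labelled DKO, Klf2 stood at 9066 ± 1538 and Klf4 at 9447 ± 1898, against 7227 ± 2359 and 9691 ± 2466 in Cre controls. Neither was called lower (limma adjusted p = 0.0881 and 0.923, exact permutation p = 0.2 and 0.943). Scaling to the same median put the DKO-labelled Klf2 value above controls by 0.63 (adjusted p = 0.00677), as did leaving out Cre control library 3 (0.57, adjusted p = 0.00137) or DKO-labelled library 2 (0.46, adjusted p = 0.0392), and gave a Klf4 difference of 0.24, where the main scaling gave -0.03. DKO-labelled Klf2 was also higher than in K2KO, by 1.42 ± 0.16 (limma adjusted p = 1.19e-06). DKO-labelled Klf4 was higher than in K4KO, by 0.69 ± 0.15 (limma adjusted p = 0.00102). Against K2KO, DKO-labelled Klf4 was lower by -0.35 ± 0.15, with 3 of 4 libraries below every K2KO library but no call (limma adjusted p = 0.0762). It was called lower in 4 of the 25 alternatives tried, among them quantile normalisation (-0.52, adjusted p = 0.00429). Over all 25 it ranged from -0.52 to -0.07. DKO-labelled Klf2 differed from K4KO by -0.03 ± 0.16 (limma adjusted p = 0.895). The lower values in K2KO and K4KO above were seen with the same whole-gene counts. Because the transcripts do not show the double deletion, and whole-gene counts cannot show a deleted exon, the group is called DKO-labelled here.

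Reads counted in genes were 25.3 to 106 M (megareads) per DKO-labelled library, 32.4 to 51.0 M per K2KO library, 21.1 to 25.4 M per K4KO library and 23.5 to 24.3 M per control. These are sums of the counts recovered from the scaled values, so total sequencing depth is not shown. Of the libraries, K2KO library 2 and K4KO library 1 stood apart by their 29670 and 29602 genes with a read, against 20582 to 24156 in the other 14. Cre control library 4 and K4KO library 4 held the lowest Thbd and the highest Tfpi and F8 of their groups. That control library also had the lowest Vwf of its group, the highest summed cardiomyocyte markers (141258 scaled counts, against 75250 to 83886 in the other 3) and the lowest summed endothelial markers (243788, against 266619 to 289819), and the part of these in its clotting gene values was not tested. Differences below are log2 of the tested genotype over its reference with the SE of the limma fit, and a gene is called where its Benjamini-Hochberg adjusted p over all 23816 genes was below 0.05. Nothing in the labels says whether the pools were processed on separate days, so p-values measure the spread between these pools.

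In the DKO-labelled libraries 7 of the 8 clotting genes were called against Cre controls, with Procr, F8, F2r and Tfpi higher and Thbd, Entpd1 and Vwf lower. The background is wide, since 38.3% of all tested genes were called in that comparison, 19% higher and 19.3% lower. The share depends on the filter for low genes, and edgeR, which kept 15694 genes, called 57% of them. The median log2 difference of all tested genes was -0.03, and it became 0.18 when libraries were scaled to the same median, where 70.4% of all calls were rises against 49.7% in the main scaling. The 7 called genes kept their directions under quantile normalisation and same-median scaling, and 3 of them lost the call under one of these, as given beside each. Against K2KO, and against K4KO, the DKO-labelled libraries had the same number of called clotting genes, 7 of 8, where 36.6% and 39.6% of all genes were called. Those comparisons and the one with controls share the DKO-labelled libraries. For 6 of the 8 genes the DKO-labelled and control libraries did not overlap, against 37% of all genes. The same held for 6 genes against K2KO libraries (39.1% of all genes) and for 4 against K4KO libraries (34.3%). No clotting gene was called in either single knockout.

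**Figure D1:**
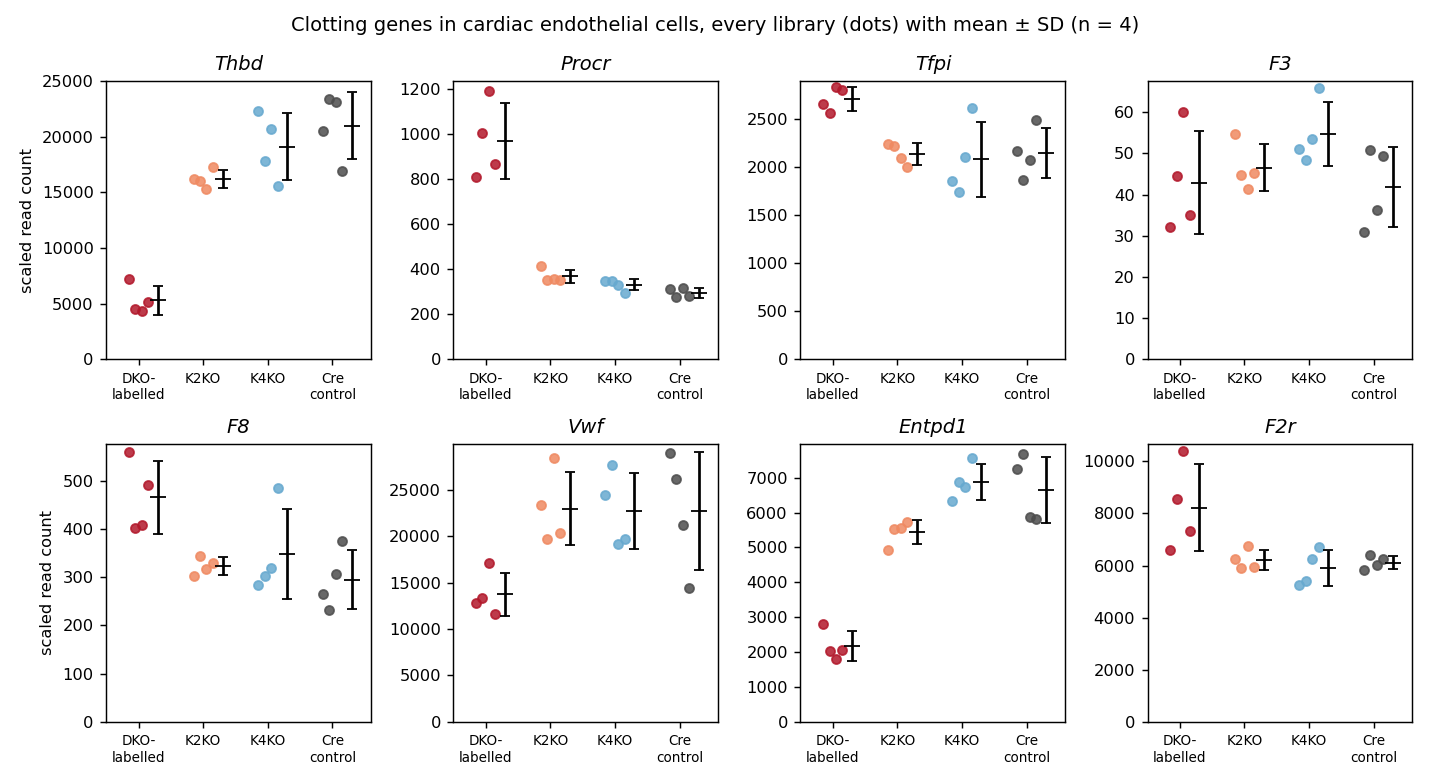
Scaled counts of the 8 clotting genes in every library, 1 panel per gene, with DKO-labelled, K2KO, K4KO and Cre control libraries in that order and the mean and SD of each group. Thbd and Entpd1 lie lowest and Procr highest in the 4 DKO-labelled libraries, whereas the F3 values of all groups overlap.

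Thbd lies on mouse chromosome 2 at 148404466 to 148408188 on the minus strand (ENSMUSG00000074743, GRCm38). It had 7197, 4512, 4338 and 5144 scaled counts in DKO-labelled libraries 2 to 5, 16241, 16057, 15341 and 17313 in K2KO libraries 2 to 5, 22384, 17866, 20740 and 15577 in K4KO libraries 1 to 4, and 20584, 23406, 23164 and 16906 in Cre control libraries 1 to 4. The DKO-labelled libraries all lay below the other 12 with a wide gap, while the ranges of K2KO, K4KO and controls overlapped. The fall was -2.01 ± 0.14 on the log2 scale against controls (95% confidence interval -2.31 to -1.70, limma adjusted p = 5.18e-09), a 4.02-fold decrease. It stayed between -2.16 and -1.74 under every alternative tried and was called in each. Ordered by their means, the DKO-labelled group with 5298 ± 1312 came first, followed by K2KO with 16238 ± 815, K4KO with 19142 ± 3022 and controls with 21015 ± 3023. Neighbours in that order above the DKO-labelled group were not told apart by the test.

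Among the 2884 genes that were called lower in the DKO-labelled libraries and averaged at least 100 scaled counts in the higher group, Thbd ranked 199th by log2 difference. By the difference in scaled counts, -15717, it ranked 20th. Per kilobase of exon, Thbd was the most abundant of the 8 in controls, with 5645 ± 812 scaled counts, followed by F2r with 1833 ± 74.4. In the DKO-labelled libraries that order was turned round, with 1423 ± 353 per kilobase for Thbd and 2466 ± 502 for F2r.

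Procr encodes the receptor that holds protein C beside thrombomodulin (chromosome 2, 155751117 to 155755471, plus strand, ENSMUSG00000027611), and its promoter with a single CACCC element is printed above. It had 811, 1005, 1191 and 867 scaled counts in DKO-labelled libraries, 413, 352, 357 and 351 in K2KO, 348, 349, 331 and 295 in K4KO, and 311, 274, 315 and 279 in Cre controls. The lowest DKO-labelled library thus exceeded every library of the other genotypes. Its rise was 1.70 ± 0.11 on the log2 scale (interval 1.46 to 1.93, limma adjusted p = 1.93e-09), 3.25-fold, and the value stayed between 1.59 and 1.96 under the alternatives tried. It was the 338th of 3942 rises by log2 difference.

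The protein C pathway pair therefore moved in opposite directions at the RNA level. The ratio of Thbd to Procr scaled counts, which does not depend on the depth factor of a library, was 3.64 to 8.87 in DKO-labelled libraries, 39.4 to 49.3 in K2KO, 51.2 to 64.3 in K4KO and 60.5 to 85.4 in Cre controls. All 4 K2KO ratios lay below all K4KO and control ratios, and no test is attached to them. DKO-labelled library 2, which was nearest to the controls for both genes, had the highest ratio of its group.

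In K2KO, Thbd was lower than in controls by -0.36 ± 0.14 (interval -0.66 to -0.06, unadjusted p = 0.022 from limma, adjusted p = 0.656) with 3 of 4 libraries below every control. Procr was higher by 0.32 ± 0.11 (interval 0.08 to 0.55, unadjusted p = 0.0106 from limma, adjusted p = 0.521) with 4 of 4 libraries above every control. Neither passed the test across all genes, and leaving out K2KO library 2, whose 413 scaled counts of Procr stood apart from the other 3, gave no call for either gene. K4KO had differences of -0.14 ± 0.14 for Thbd and 0.16 ± 0.11 for Procr, also without a call (limma adjusted p = 0.87 and 0.813).

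**Figure D2:**
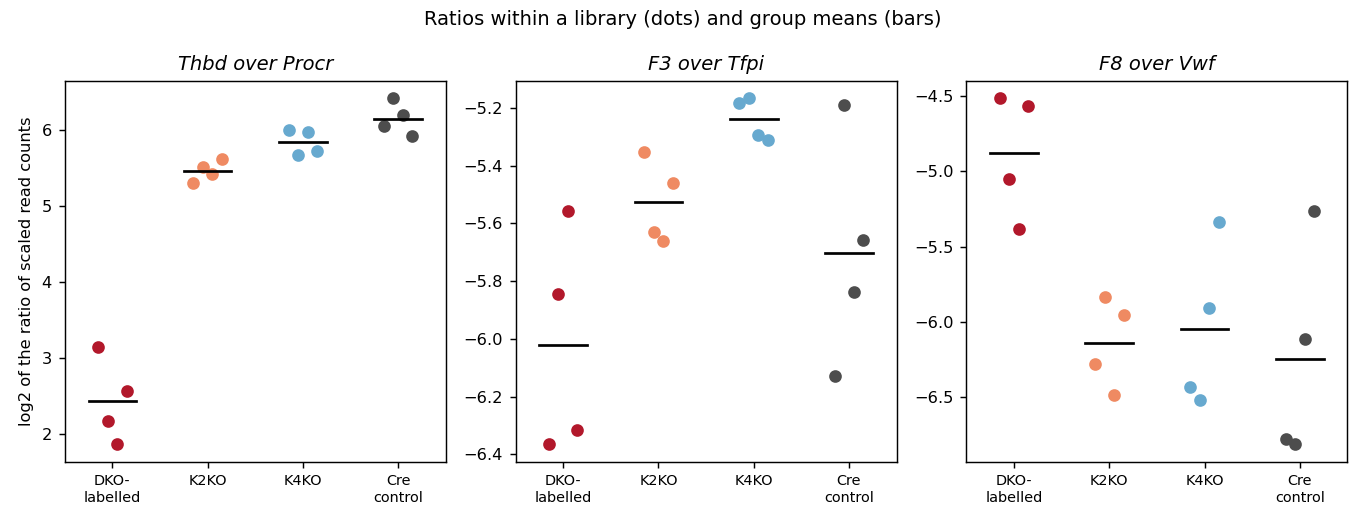
Log2 ratio of scaled counts per library for Thbd over Procr, F3 over Tfpi and F8 over Vwf, with DKO-labelled, K2KO, K4KO and Cre control libraries from left to right. Thbd over Procr spans 1.86 to 3.15 in DKO-labelled libraries and 5.92 to 6.42 in controls, whereas the DKO-labelled and control ranges of the other ratios overlap.

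Tissue factor, the cell-surface receptor for factor VIIa that starts clotting, is encoded by F3 (chromosome 3, 121723537 to 121735052, plus strand, ENSMUSG00000028128). Its transcript was scarce, with 32.1, 44.5, 60.0 and 35.1 scaled counts in DKO-labelled libraries, 54.8, 44.9, 41.3 and 45.2 in K2KO, 51.0, 48.3, 53.6 and 65.8 in K4KO, and 30.9, 50.9, 36.2 and 49.3 in Cre controls. The ranges of the 4 groups overlapped. The difference was 0.02 ± 0.22 between DKO-labelled and control libraries (interval -0.44 to 0.48, limma adjusted p = 0.956), and leaving out DKO-labelled library 4 put it at -0.15. Each library held 25 to 197 F3 reads, and 25 reads carry an exact Poisson 95% interval of 16.2 to 36.9, which covers counting error only. In K4KO, F3 was higher than in controls by 0.40 ± 0.22 in 3 of 4 libraries above every control, with no call (limma adjusted p = 0.755).

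Tfpi, whose product blocks the tissue factor and factor VIIa complex, lies on chromosome 2 at 84432855 to 84476775 on the minus strand (ENSMUSG00000027082). It had 2652, 2555, 2825 and 2796 scaled counts in DKO-labelled libraries, 2238, 2219, 2088 and 1991 in K2KO, 1852, 1736, 2103 and 2612 in K4KO, and 2160, 1857, 2070 and 2487 in Cre controls. The DKO-labelled libraries lay above all controls and all K2KO libraries, by a small margin, and K4KO library 4 reached into their range. Tfpi rose by 0.34 ± 0.11 against controls (interval 0.12 to 0.57, limma adjusted p = 0.0165), a 1.27-fold change. That call was lost under quantile normalisation (0.20, adjusted p = 0.188) and without Cre control library 2 (0.28, adjusted p = 0.0665). F3 over Tfpi ranged from -6.37 to -5.56 on the log2 scale in DKO-labelled libraries and from -6.13 to -5.19 in controls.

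Vwf encodes the large multimer that tethers platelets and carries factor VIII, and it is stored in the Weibel-Palade bodies of endothelial cells (chromosome 6, 125546774 to 125686679, plus strand, ENSMUSG00000001930). It had 12840, 13367, 17071 and 11656 scaled counts in DKO-labelled libraries, 23396, 19699, 28393 and 20384 in K2KO, 24461, 27725, 19152 and 19659 in K4KO, and 29031, 26137, 21234 and 14434 in Cre controls. DKO-labelled libraries lay below every K2KO and K4KO library, but Cre control library 4 fell among them. The fall was -0.69 ± 0.18 against controls (interval -1.08 to -0.30, limma adjusted p = 0.00537), a level 0.619 times that of controls. With scaling to the same median it was -0.43 and no longer called (adjusted p = 0.0839). The single knockouts differed from controls by 0.05 ± 0.18 in K2KO and 0.03 ± 0.18 in K4KO, with intervals of -0.34 to 0.44 and -0.35 to 0.42 and no call.

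F8 encodes the clotting cofactor that circulates on von Willebrand factor (X chromosome, 75172715 to 75382615, minus strand, ENSMUSG00000031196). It had 561, 403, 409 and 491 scaled counts in DKO-labelled libraries, 302, 345, 317 and 330 in K2KO, 284, 302, 319 and 486 in K4KO, and 264, 233, 307 and 376 in Cre controls. Every DKO-labelled library lay above every control and K2KO library, while K4KO library 4 lay among the DKO-labelled ones. F8 rose by 0.67 ± 0.16 against controls (interval 0.32 to 1.01, limma adjusted p = 0.00294), 1.59-fold, and was called under every alternative, at 0.56 to 0.93. Against K4KO its rise of 0.44 ± 0.16 was called with an adjusted p of 0.0398 but lost the call in 11 of the 25 alternatives, with adjusted p up to 0.137. F8 and Vwf thus moved apart, and log2 F8 over Vwf was -5.38 to -4.52 in DKO-labelled libraries, -6.49 to -5.84 in K2KO, -6.52 to -5.34 in K4KO and -6.81 to -5.26 in controls.

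Entpd1 encodes CD39, a surface enzyme that degrades ATP and ADP and so removes a platelet agonist (chromosome 19, 40612366 to 40741602, plus strand, ENSMUSG00000048120). It had 2799, 2028, 1805 and 2060 scaled counts in DKO-labelled libraries, 4934, 5538, 5564 and 5719 in K2KO, 6325, 6884, 6744 and 7577 in K4KO, and 7250, 7678, 5873 and 5805 in Cre controls. All DKO-labelled libraries lay below the other 12, and all K2KO libraries lay below all K4KO and control libraries. The fall in the DKO-labelled group was -1.62 ± 0.12 (interval -1.87 to -1.37, limma adjusted p = 5.91e-09), 3.08-fold, within -1.79 to -1.36 under the alternatives and always called. K2KO differed by -0.28 ± 0.12 from controls (unadjusted p = 0.028 from limma, adjusted p = 0.698) and by -0.34 ± 0.12 from K4KO (adjusted p = 0.388), without a call. By means the order was DKO-labelled with 2173 ± 433, K2KO with 5439 ± 346, Cre control with 6652 ± 955 and K4KO with 6882 ± 520, and only the step from DKO-labelled to K2KO passed the test.

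F2r encodes PAR1, the receptor by which thrombin and activated protein C signal to endothelium (chromosome 13, 95601804 to 95618459, minus strand, ENSMUSG00000048376). It had 6591, 8566, 10419 and 7326 scaled counts in DKO-labelled libraries, 6263, 5917, 6750 and 5931 in K2KO, 5268, 5403, 6249 and 6725 in K4KO, and 5828, 6391, 6007 and 6237 in Cre controls. DKO-labelled library 2 was only just above the controls, whereas library 4 was well above them. F2r rose by 0.41 ± 0.11 (interval 0.17 to 0.64, limma adjusted p = 0.00737), 1.33-fold. Quantile normalisation brought it to 0.20 without a call (adjusted p = 0.13), and leaving out DKO-labelled library 4 gave 0.29 with a call (adjusted p = 0.0319).

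**Figure D3:**
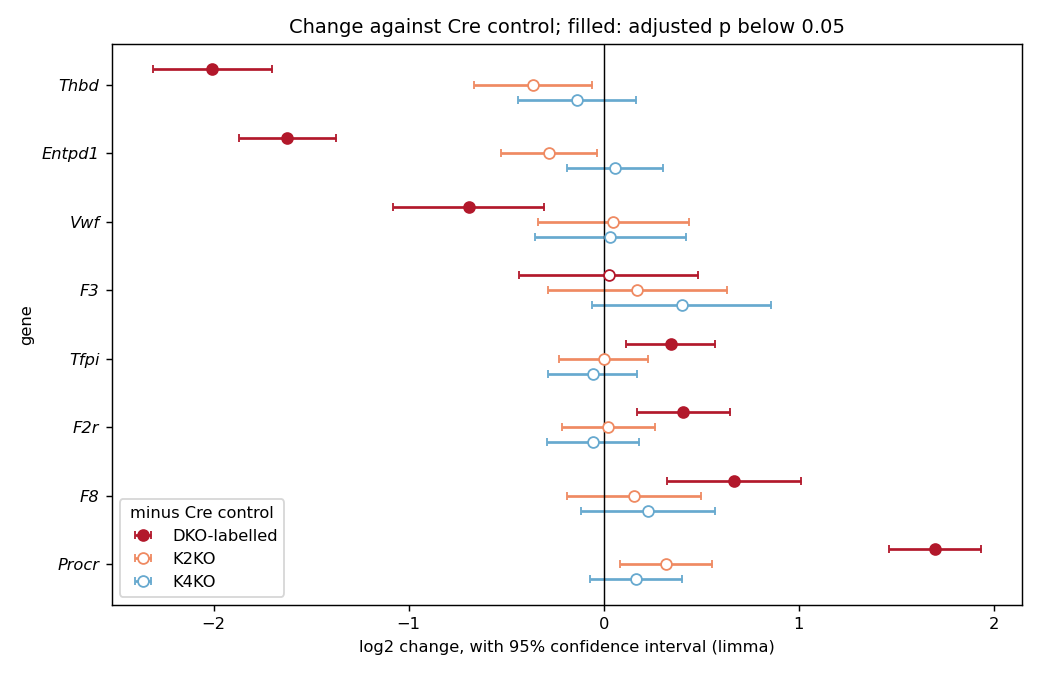
Log2 differences with 95% confidence intervals for the 8 genes in DKO-labelled, K2KO and K4KO libraries against Cre controls, with filled points where the limma adjusted p was below 0.05. Filled points occur in the DKO-labelled comparison only, from -2.01 for Thbd to 1.70 for Procr.

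Against the single knockouts the DKO-labelled differences had the same directions as against controls for the 7 called genes. Thbd was lower by -1.64 ± 0.14 than in K2KO and by -1.87 ± 0.14 than in K4KO (limma adjusted p = 6.52e-08 and 1.36e-08), and Entpd1 by -1.34 ± 0.12 and -1.68 ± 0.12. Procr was higher by 1.38 ± 0.11 and 1.53 ± 0.11. The smaller differences were -0.74 and -0.73 for Vwf, 0.34 and 0.40 for Tfpi, 0.51 and 0.44 for F8, and 0.38 and 0.46 for F2r, each called (adjusted p at most 0.0398). With quantile normalisation the call against K4KO was lost for Tfpi, F8 and F2r, which left 4 called. Against K2KO the same normalisation lost the calls of Tfpi (0.21, limma adjusted p = 0.16) and F2r (0.20, adjusted p = 0.134). Same-median scaling lost the Vwf call against K2KO (-0.47, limma adjusted p = 0.0581) and against K4KO (-0.41, adjusted p = 0.0883). The F8 call against K2KO was lost without DKO-labelled library 2 (0.42, adjusted p = 0.0694), DKO-labelled library 5 (0.48, adjusted p = 0.0508) or K2KO library 2 (0.48, adjusted p = 0.0518), and that of Tfpi without K2KO library 5 (0.31, adjusted p = 0.0528). F3 differed by -0.15 ± 0.22 from K2KO and -0.37 ± 0.22 from K4KO, without a call. In the authors' deposited table, Thbd, Procr, Entpd1 and F2r passed an adjusted p of 0.05 against K2KO and against K4KO. Vwf (adjusted p = 0.0574 and 0.0754), Tfpi (0.066 and 0.0544) and F8 (0.116 and 0.32) did not pass there.

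No clotting gene was called in K2KO against controls, where limma called 40 of all tested genes (0.168%). At an unadjusted p below 0.05 there were 3, Thbd, Procr and Entpd1, against 6.48% of all genes. K2KO libraries did not overlap controls for Procr and Entpd1, against 4.41% of all genes. No clotting gene was called in K4KO either, where limma called 15 genes (0.063%), none of the 8 had an unadjusted p below 0.05 (7.06% of all genes had), and all overlapped controls (2.83% of all genes did not). Between K2KO and K4KO, limma called 0.445% of all genes and none of the 8. Entpd1 alone had an unadjusted p below 0.05, against 7% of all genes, and Procr and Entpd1 did not overlap, against 4.69%. On the recovered reads edgeR also called none of the 8 in these 3 comparisons, where it called 0.274%, 0.108% and 0.796% of its genes, and DESeq2 called none where it called 0.731%, 0.475% and 1.76%. In the authors' deposited table, 5 of the 8 had an adjusted p below 0.05 for the double knockout against control, as had 21.7% of the genes with a value there, while Vwf had 0.0516 and Tfpi 0.071. None of the 8 passed in the authors' deposited table for K2KO or K4KO against control, where 0.138% and 0.0923% of genes did.

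By label the genotypes form a factorial design, although the Klf2 and Klf4 transcripts do not show the double deletion. On these labels the DKO-labelled difference was set against the sum of the single-knockout differences, which share the same controls. The interaction was called for 5 of the 8 genes, against 26.7% of all tested genes. For Thbd the sum of the singles was -0.50 and the interaction -1.51 ± 0.20 (limma adjusted p = 2.87e-05). Procr had a sum of 0.48 and an interaction of 1.22 ± 0.16 (adjusted p = 2.07e-05), and Entpd1 a sum of -0.22 and an interaction of -1.40 ± 0.17 (adjusted p = 9.02e-06). Each of these 3 thus differed in the DKO-labelled libraries by more than the single differences add up to, and each was called under all 24 alternatives. Vwf with -0.77 ± 0.26 (adjusted p = 0.0341) and F2r with 0.44 ± 0.16 (adjusted p = 0.0494) were near the threshold and lost the call in 13 and 16 of them, with adjusted p up to 0.218 and 0.273. Tfpi with 0.40 ± 0.15, F8 with 0.29 ± 0.23 and F3 with -0.55 ± 0.31 had no called interaction (adjusted p = 0.0617, 0.399 and 0.215). Scaling to the same median brought that of Tfpi to 0.72 (adjusted p = 0.00187) and that of F8 to 0.61 (adjusted p = 0.0465), both called.

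**Figure D4:**
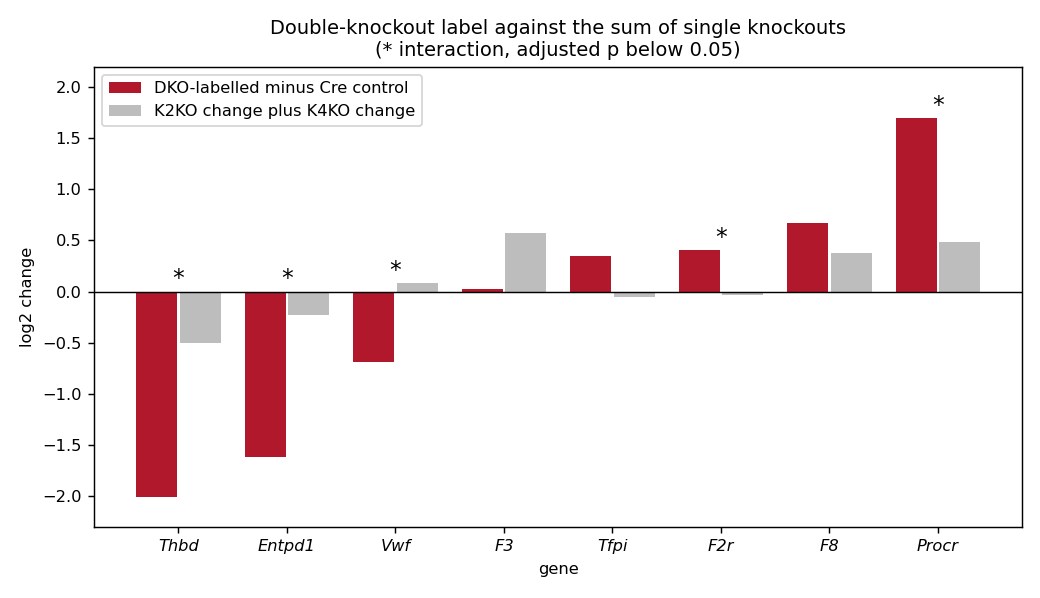
DKO-labelled minus Cre control log2 difference of each clotting gene beside the sum of its K2KO and K4KO differences, with a star where the interaction had an adjusted p below 0.05. Thbd shows -2.01 beside a sum of -0.50, and Procr 1.70 beside 0.48.

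Other genes of these pathways moved in both directions in the DKO-labelled libraries. Among clotting factors and their processing proteins, 2 of 17 tested were higher and 4 lower, with a median of -0.19. These and the following counts stand beside 19% higher and 19.3% lower among all tested genes. Factor VII (F7) fell by 1.09 ± 0.31, to 30.4 ± 6.01 scaled counts in DKO-labelled libraries against 69.7 ± 26.9 in controls (limma adjusted p = 0.00784). Factor V (F5), one of the cofactors that activated protein C inactivates, fell by 0.75 ± 0.22 (adjusted p = 0.00944). Mcfd2, whose product helps export factors V and VIII from the endoplasmic reticulum, fell by 0.33 ± 0.07. Ano6, a scramblase that exposes phosphatidylserine, rose by 0.34 ± 0.08. F7 and Ano6 lost the call with quantile normalisation, Mcfd2 with same-median scaling, and F5 with each of these.

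The list of other inhibitors and their cofactors, in which Gas6 was also placed, had 4 of 10 higher and 2 lower, with a median of 0.32. Anxa5, encoding the phosphatidylserine-binding annexin A5, averaged 13474 ± 1023 in DKO-labelled libraries and 6973 ± 342 in controls, a rise of 0.95 ± 0.08 (limma adjusted p = 1.74e-08). Antithrombin (Serpinc1) rose by 1.34 ± 0.16 from a low level, with 143 ± 6.93 scaled counts against 56.4 ± 9.79, and Tfpi2, a protease inhibitor related to Tfpi, rose by 1.18 ± 0.14. Gas6, a vitamin K-dependent ligand of TAM receptors, fell by 1.60 ± 0.20, to 3349 ± 527 in DKO-labelled libraries against 10418 ± 2885 in controls. Among other thrombin and platelet receptors 1 of 10 was higher and 2 were lower. That rise was F2rl3, which encodes the thrombin receptor PAR4, at 391 ± 9.39 scaled counts in DKO-labelled libraries and 113 ± 7.98 in controls (1.79 ± 0.16, adjusted p = 6.39e-08). Gp9 and P2ry12, which are known from platelets, fell by 1.47 ± 0.36 and 0.80 ± 0.25, and P2ry12 lost the call under both rescalings.

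Genes of Weibel-Palade body storage, release and von Willebrand factor clearance had 8 of 20 higher and 7 lower (median 0.22). Quantile normalisation gave 4 higher and 8 lower, and same-median scaling 10 higher and 3 lower. Myrip, which links the bodies to actin, fell by 2.61 ± 0.20, to 82.3 ± 23.1 scaled counts in DKO-labelled libraries against 507 ± 136 in controls (limma adjusted p = 1.4e-08). Cd63, a tetraspanin of their membrane, rose by 1.44 ± 0.18, Vamp3, a vesicle SNARE, rose by 0.49 ± 0.08, and Mmrn1, encoding multimerin 1, fell by 0.97 ± 0.17. Selp, the stored adhesion receptor P-selectin, was the only gene of the 5 lists called in a single knockout against controls. Its values were 1483 ± 183 in DKO-labelled libraries, 1760 ± 216 in K2KO, 1464 ± 127 in K4KO and 917 ± 257 in controls, with rises of 0.72 ± 0.14 in the DKO-labelled group and 0.97 ± 0.14 in K2KO (adjusted p = 4.77e-04 and 0.00592).

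Surface nucleotide metabolism, the pathway of Entpd1, had 2 of 14 genes higher and 3 lower, with a median of -0.16. Alpl, encoding a phosphatase that acts on nucleotides and pyrophosphate, fell by 3.18 ± 0.23, to 276 ± 146 scaled counts in DKO-labelled libraries against 2289 ± 349 in controls (limma adjusted p = 4.85e-09). Enpp3, another ecto-nucleotidase gene, fell by 1.24 ± 0.16. The adenosine transporter gene Slc29a1 rose by 0.67 ± 0.12 and the adenosine receptor gene Adora2a by 0.71 ± 0.16. The median of all tested genes was -0.03, and the lists were not tested as sets. With scaling to the same median, the medians of the lists of clotting factors, of receptors and of nucleotide metabolism turned positive, at 0.03, 0.08 and 0.04, and quantile normalisation put that of the receptors at 0.07.

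**Figure D5:**
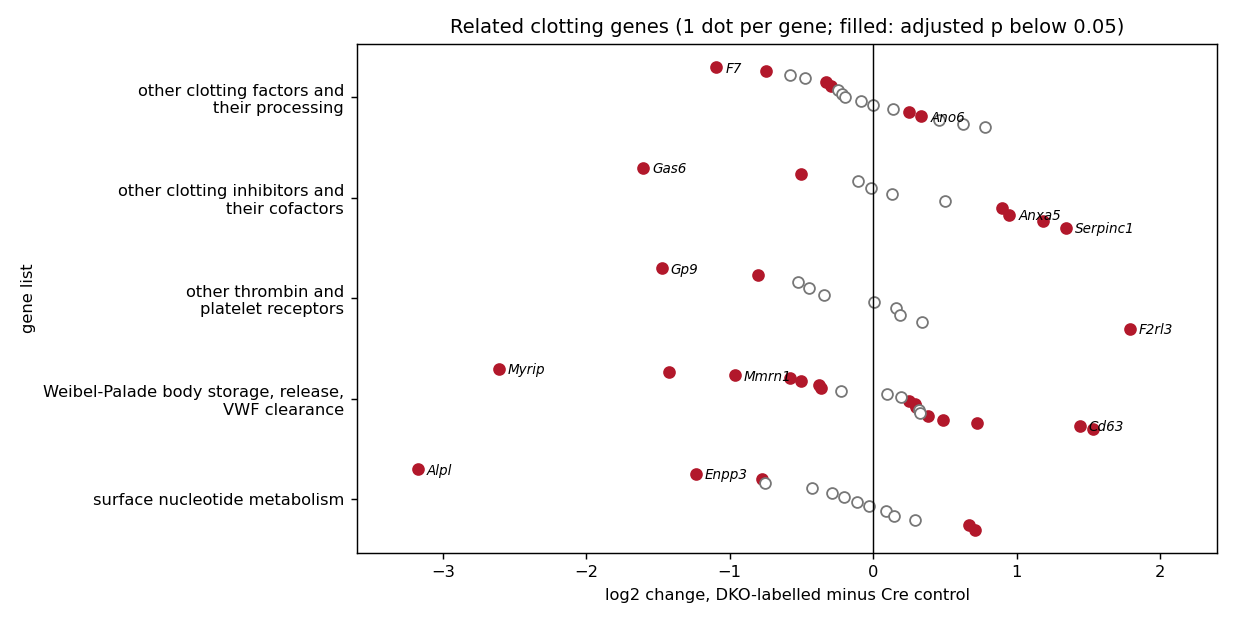
DKO-labelled minus Cre control log2 differences of the tested genes in 5 lists of related genes, 1 point per gene, with filled points where the limma adjusted p was below 0.05. Called genes lie on both sides of 0 in each list, from -3.18 for Alpl to 1.79 for F2rl3.

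Markers of several other cell types were lower in the DKO-labelled libraries. The marker counts here and in the next paragraph stand beside 19% higher and 19.3% lower among all tested genes. Summed cardiomyocyte markers were 16831 to 26140 scaled counts in DKO-labelled libraries and 75250 to 141258 in controls, with 10 of 10 genes lower. Erythroid markers summed to 4400 to 7321 and 18804 to 24640 (8 of 8 lower), mural cell markers to 76069 to 92961 and 122124 to 130952 (4 of 10 lower, and 8 with quantile normalisation), and lymphocyte markers to 425 to 505 and 1198 to 1592 (5 of 10 lower). Platelet markers, which bear on Vwf, summed to 486 to 997 in DKO-labelled libraries and 621 to 1014 in controls, with 1 of 10 higher and 2 lower. This list shares Gp1ba, Gp1bb, Gp9 and Itga2b with the receptor list above, and Gp9 is among the lower genes of both. Endocardial markers summed to 6288 to 9376 and 7610 to 12920, with 1 of 7 higher and 1 lower, and DKO-labelled library 4, with the highest Vwf of its group, had the highest sum of its group for every marker list except those of cardiomyocytes and lymphocytes. Lymphatic endothelial markers summed to 11264 to 14429 and 10582 to 14704, with 1 of 6 higher and 3 lower, and the seventh, Ccl21a, was at 0 in every library. Mmrn1, already counted in the Weibel-Palade body list, is among the lower genes here too.

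Fibroblast markers had 3 of 10 higher and 3 lower, and macrophage markers 2 of 10 lower, or 2 higher and 1 lower with same-median scaling. Mesothelial markers summed to 2489 to 4087 in DKO-labelled libraries and 1315 to 1977 in controls, with 1 of 9 higher and 3 lower. Nearly all of that sum was Wt1, singled out after its value was seen, which averaged 3148 in DKO-labelled libraries and 1626 in controls. Apart from Ccl21a no marker of any list was at 0 in all libraries of a group. General endothelial markers were abundant in every group, at 291127 to 335109 in DKO-labelled libraries and 243788 to 289819 in controls, with 5 of 10 higher and 3 lower. Among the marker lists, 1 was called lower in K4KO against controls, the fibroblast gene Pi16 (-1.04 ± 0.17, limma adjusted p = 0.0267), which is named after its value was seen, and none was called in K2KO. Of all tested genes, 0.063% were called in K4KO and 0.168% in K2KO. The part of these markers in the clotting gene differences was not tested, and in bulk RNA fewer cells of a type and less RNA per cell cannot be told apart.

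The genes whose pattern over the 16 libraries was most like each clotting gene were found by Pearson correlation of log2 values among 10850 genes. These coefficients include the DKO-labelled libraries, and values over the 12 other libraries are given beside them. Without the DKO-labelled libraries some hardly changed, as for Tfpi and Smim13, and others fell, as for F2r and Sbf2. The 12 libraries are part of the 16 by which the genes were picked, so they are no separate check. For Thbd they were Idnk (0.991 over 16 and 0.948 over 12 libraries), Pltp (0.988 and 0.802), Hfe (0.985 and 0.761) and Ephx1 (0.985 and 0.845). Procr had Itga5 (0.987 and 0.757) and Abca4 (0.985 and 0.731), and Entpd1 had Tmtc1 (0.984 and 0.779) and Mettl7a1 (0.983 and 0.693). Vwf was most like Mgp (0.949 and 0.866) and Arvcf (0.933 and 0.850), F8 like Dek (0.944 and 0.926) and Pign (0.940 and 0.892), and Tfpi like Smim13 (0.964 and 0.956) and Asah2 (0.946 and 0.909). F2r had Sbf2 (0.933 and 0.600) and Rnf144b (0.929 and 0.619). F3, the gene with the fewest reads, had the weakest likeness, to Mtfr1l (0.788 and 0.641) and Vstm4 (0.769 and 0.653).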

How the data were processed

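Gene expression was measured in 16 libraries of 4 genotypes. The submitters' processing notes name TopHat, Cuffdiff and the build GRCm38 without roles or versions, and the library kit is stranded per the labels' protocols. No source used here says whether counting used the strand. The values are a signal that the authors deposited as read counts divided by 1 factor per library. Every value was a whole multiple of 1 read (100% within 0.001 reads), and the factors equal the size factors that DESeq2 1.42.0 gave from the recovered reads. A read was worth 0.305 to 1.46 scaled counts. The authors also deposited a ratio as the fold change and adjusted p-values, used only where named. The 16 columns were all used. Cre control and K4KO numbers are those of the labels, while the labels of K2KO and DKO start at 1 but their columns at 2, so these columns were not linked to single samples.

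limma 3.58.1 in R 4.3.3 (eBayes with trend) was fitted to log2(value + 1) of genes that reached a value of 1 in 4 or more libraries, with 4 group means and 7 comparisons, and Benjamini-Hochberg adjustment within each. Log2 differences on this scale understate changes of low genes. edgeR 4.0.16 and DESeq2 were run on the recovered reads. The limma procedure was also run on simulated data in which few genes changed and the depth factors were known. That run does not test the scaling between libraries. Per-kilobase values used the exon union of GENCODE M21. Alternatives were a pseudocount of 0.1, no filter, other scalings, the compared groups alone, robust limma, a replicate block, both count tools and leaving out each library. Leaving out the 2 libraries with most genes detected was chosen after seeing the data. Members and lists were chosen with earlier results of these data known. Named genes were the 8 members, Klf2 and Klf4, up to 4 called genes per list with the smallest p, list genes called in a single knockout, and the genes most like each member of mean value at least 100, without gene models named Gm or ending in Rik.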

Additional observations from a re-analysis of the deposited data

Results flagged for a closer look

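Procr in K2KO had 1 library apart from the other 3 of its group, with 412.6 scaled counts in library 2 against 351 to 357 in the others. That library also had the most genes with a read of all 16. In 32 sets of 4 libraries checked for such a gap, chance gives about 1 in 20. The difference between DKO-labelled and K2KO libraries differed from that between K4KO and Cre control libraries for Thbd (interaction -1.51 on the log2 scale), Procr (1.22), Entpd1 (-1.40), Vwf (-0.77) and F2r (0.44), by the limma interaction test with adjusted p = 2.87e-05, 2.07e-05, 9.02e-06, 0.0341 and 0.0494.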

How the results depend on the processing

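In DKO-labelled libraries against controls, Thbd, Procr, Entpd1 and F8 kept direction and call in all 25 alternatives. Calls of Tfpi, Vwf and F2r were lost where named above. For all genes called, K2KO minus control gave 40, and 24 without a filter, 63 with the compared groups alone, 10 with robust limma, 18 without the 2 libraries with most genes detected, 123 with DESeq2 and 13 to 137 without single libraries, with the highest count without Cre control library 3. K4KO minus control gave 15, and 8, 2 and 2 under the first 3 of these settings, 80 with DESeq2 and 4 to 23 without single libraries. K2KO minus K4KO gave 106, and 38 with robust limma, 30 without the 2 libraries, 296 with DESeq2 and 54 to 211 without single libraries. The number of clotting genes called for DKO minus K4KO was 7, and 4 with quantile normalisation. The interaction called 5, and 3 without a filter, with robust limma or without the 2 libraries, and 3 to 6 without single libraries. It fell to 3 without Cre control library 3 or 4, DKO library 3, K2KO library 2, or K4KO library 1 or 2. The Vwf interaction lost its call without any one of these 6 and without DKO library 2 or 5 or K2KO library 4, and that of F2r without any Cre control library, DKO library 3 or 4, K2KO library 2, 3 or 5, or K4KO library 1 or 2. The Tfpi interaction was called with same-median scaling (0.72) and without Cre control library 2 or K4KO library 4, and that of F8 with same-median scaling (0.61). The F8 difference between DKO and K4KO lost its call without DKO library 2 or 5 or K4KO library 1, 2 or 3. The causes were not tested.

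Signs turned for uncalled differences only. With another scaling, or without the 2 libraries, these were Klf4 in DKO minus control with same-median scaling (0.24), Klf2 in DKO minus K4KO with the same scaling (0.28), F3 in DKO minus K2KO with quantile (0.18) and same-median scaling (0.12), F2r in K2KO minus control with quantile normalisation (-0.000695), Vwf in K4KO minus control with same-median scaling (-0.012) and without the 2 libraries (-0.0069), Vwf in K2KO minus K4KO with quantile normalisation (-0.077) and Tfpi in K2KO minus K4KO without the 2 libraries (-0.016). Leaving out single libraries gave, for DKO minus control, -0.15 to 0.15 for F3 and -0.14 to 0.14 for Klf4, and for Klf2 in DKO minus K4KO -0.13 to 0.065. In K2KO minus control it gave -0.066 to 0.074 for Tfpi, -0.15 to 0.18 for Vwf and -0.018 to 0.045 for F2r. In K4KO minus control it gave -0.17 to 0.023 for Tfpi, -0.17 to 0.17 for Vwf and -0.0045 to 0.13 for Entpd1. In K2KO minus K4KO it gave -0.024 to 0.17 for Tfpi, -0.16 to 0.10 for F8 and -0.091 to 0.12 for Vwf.

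Same-numbered Cre control and K4KO libraries deviated together with correlations of -0.0035 to 0.158, and differently numbered ones with -0.143 to 0.085. Library 4 of both groups gave the highest value. The numbers were not taken as pairs in the main fit, which these values do not decide. With the replicate number as a block, K4KO minus control called 14 genes and none of the clotting genes, and Klf4 passed with an adjusted p of 0.0284. No paired analysis was possible for the other comparisons because the K2KO and DKO columns carry no label numbers. F3 had the fewest reads.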
